A study of Mus musculus with 7 samples.

Results

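The genes described here are the 10 troponins and myosin light chains that differ between fast and slow muscle fibres, found by symbol in the count files and followed by the same Ensembl identifiers in all libraries. Of the 56854 gene identifiers common to all files, 5 are the fast members Tnnt3, Tnni2, Tnnc2, Myl1 and Mylpf, and 5 are the slow members Tnnt1, Tnni1, Tnnc1, Myl2 and Myl3. The libraries were RNA sequencing of whole shoulder joints from 7 mice, taken 2 weeks after the supraspinatus tendon of the left rotator cuff had been repaired. The groups were 3 wild-type mice and 4 Tnc-/- mice, which lack tenascin C, a glycoprotein of the extracellular matrix. Every mouse of both groups had the repair, so no unoperated joint enters any comparison. Strain, age and the design of the Tnc allele are not given in the sources used here. The comparison asks how joints without tenascin C differ from wild-type joints after the repair.

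Contraction of striated muscle is switched on by calcium through the troponin complex on the thin filament. Troponin C binds calcium, troponin I holds the filament off in its absence, and troponin T ties the complex to tropomyosin. Each myosin head carries an essential and a regulatory light chain, which stiffen its lever arm and tune its force and speed. Fast and slow fibres use different genes for all of these proteins. The slow forms of troponin C and of both light chains are also those of the heart ventricle, whereas the heart uses troponin I and troponin T genes of its own.

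RefSeq promoter windows on GRCm38.p6, from 250 bases before to 50 bases after a start site, were matched by symbol to 8 of the 10 members, with 10 windows among them. Those of Mylpf, Myl1 and Tnnt1 are shown because, of the members with a window, these fast genes and this slow gene had the highest levels per length in their class. The E-box CANNTG, the site class bound by myogenic bHLH factors, is in capitals and was searched on both strands, its letters being their own reverse complement. An E-box occurs in 72.3% of all 32851 windows of this length, so its presence does not set these windows apart. The MEF2 core, CTA and TAG with NNNN between them, also searched on both strands, occurs in 3.69% of all windows and in 0 of the 10 member windows, which says only that these letters are not in them. The sequences run 5′ to 3′ along the strand of the gene.
Mylpf, fast regulatory light chain, chr7:127211358-127211657, plus strand: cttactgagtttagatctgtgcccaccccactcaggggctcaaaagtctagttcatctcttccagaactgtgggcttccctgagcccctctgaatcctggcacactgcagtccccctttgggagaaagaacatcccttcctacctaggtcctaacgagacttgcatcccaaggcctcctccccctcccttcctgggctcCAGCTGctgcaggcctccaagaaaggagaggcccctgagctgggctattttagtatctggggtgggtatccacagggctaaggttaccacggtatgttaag
Myl1, fast essential light chain, chr1:66945007-66945306, minus strand: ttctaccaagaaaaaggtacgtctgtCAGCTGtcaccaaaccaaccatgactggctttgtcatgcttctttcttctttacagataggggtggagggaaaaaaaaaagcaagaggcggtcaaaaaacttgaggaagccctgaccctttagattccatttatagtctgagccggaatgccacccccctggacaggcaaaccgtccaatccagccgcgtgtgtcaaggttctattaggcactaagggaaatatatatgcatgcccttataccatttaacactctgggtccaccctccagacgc
Tnnt1, slow troponin T, chr7:4515926-4516225, minus strand: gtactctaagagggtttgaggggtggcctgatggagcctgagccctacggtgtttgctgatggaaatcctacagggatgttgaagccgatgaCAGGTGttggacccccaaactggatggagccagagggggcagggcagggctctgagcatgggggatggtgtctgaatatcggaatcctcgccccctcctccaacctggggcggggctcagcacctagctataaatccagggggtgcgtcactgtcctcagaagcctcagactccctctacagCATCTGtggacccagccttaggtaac

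The libraries held between 13.5 and 18.5 M gene counts in wild type and between 19.3 and 28.2 M in Tnc-/-. The targeted gene Tnc had 434, 290 and 325 CPM (counts per mega-count of the library after TMM scaling) in wild type and 33.1, 38.6, 39.6 and 54.6 CPM in Tnc-/- (edgeR log2 fold change -3.08, SE 0.21, adjusted p = 2.8e-04). Wild-type libraries 2 and 3 stood apart from the rest. The summed level of 2010 smell and pheromone receptor genes, which a joint should hardly use, was 1564 and 1112 CPM of the unscaled totals in them, against 89.8 in wild-type library 1 and 33.3 to 41.5 in Tnc-/-. Results are therefore also given without these libraries, which leaves 1 wild-type library whose spread is then assumed to be that of the Tnc-/- libraries. A further fit took the log2 of this receptor level as a covariate. The level was higher in every wild-type than in every Tnc-/- library, so that fit separates it from genotype only in part. The SE of Tnnt3 was 0.41 in it against 0.26, and 399 genes were called against 5159. A call lost or a sign turned there cannot be assigned to either. The wild-type and Tnc-/- files came from different counting runs, and throughout the results an effect of the run cannot be told apart from one of genotype.

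Of the 10 members, 9 passed the filter on low counts and 8 had over 3 counts in every library. Only Myl2 passed the test at an adjusted p of 0.05, as 1 of 9 tested, higher in Tnc-/- (edgeR quasi-likelihood test, Benjamini-Hochberg over all 17791 genes tested). Among all genes tested, 29.0% were called and 10.3% were called higher, so a count of 1 in 9 lies near this background. Every Tnc-/- library lay above every wild-type library for 4 of the 9, namely Tnnt3, Tnni2, Mylpf and Myl2. Over all genes tested the groups were apart in this way for 35.1% in either direction and for 17.7% in the upward direction. The count of 4 depends on the TMM scaling: it was 2 with DESeq2 size factors (Tnnt3 and Tnni2, beside 16.2% of all genes tested) and 1 with library totals (Tnnt3, beside 10.4%). The median log2 fold change was 0.61 over the 5 fast members tested and 0.63 over the 4 slow ones, beside -8.9e-04 over all genes tested. In bulk tissue, a different number of muscle fibres and a different amount of RNA per fibre cannot be told apart.

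Set against exon length, the fast members were the abundant ones. Mylpf led with a mean of 2452 ± 677 CPM per kb of exon (SD over the 7 libraries of both genotypes), followed by Tnnt3 with 2198 ± 747. Mylpf lay above Tnnt3, and Tnnt3 above Tnni2, in 7 of 7 libraries. Tnni2 (1414 ± 401 CPM per kb) and Myl1 (1393 ± 341) did not differ beyond their spread over the 7 libraries. Their order was not the same in the genotypes, Myl1 being the higher in 3 of 3 wild-type libraries and Tnni2 in 3 of 4 Tnc-/- libraries. The slow members followed at a distance, Tnnt1 with 52.5 ± 13.1 CPM per kb, Myl3 with 44.4 ± 16.4, Myl2 with 43.1 ± 18.9 and Tnni1 with 20.04 ± 2.59. Myl1 exceeded Tnnt1 in 7 of 7 libraries, whereas each of the slow neighbours Tnnt1 over Myl3, Myl3 over Myl2 and Myl2 over Tnni1 kept that order in 5 of 7. By genotype, Tnnt1 lay above Myl3 per kb, and Myl3 above Myl2, in 3 of 3 wild-type and 2 of 4 Tnc-/- libraries. Myl2 lay above Tnni1 in 1 of 3 wild-type and 4 of 4 Tnc-/- libraries. Exon lengths are those of GENCODE M21 and not of the annotation used for counting, and Tnnc2 and Tnnc1, at or near 0, are left out of this order.

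Troponin T anchors the complex to tropomyosin. Fast Tnnt3 had, in wild-type libraries 1 to 3, levels of 2966, 2719 and 1717 CPM, and had 3544, 5444, 4173 and 3798 CPM in Tnc-/- libraries 1 to 4. The lowest Tnc-/- library lay above the highest wild-type one, also with DESeq2 size factors and library totals. The means were 2467 ± 662 (SD, n = 3) and 4239 ± 844 CPM (SD, n = 4), and the log2 fold change of 0.78 (SE 0.26) missed the threshold (edgeR adjusted p = 0.0516). It was 0.51 without wild-type libraries 2 and 3 and 0.46 with the summed smell and pheromone receptor level as a covariate. Slow Tnnt1 had 121, 103 and 60.1 CPM in wild type and 123, 120.2, 128 and 155 CPM in Tnc-/-. Wild-type library 1 lay inside the Tnc-/- range and library 3 was the low one. Its log2 fold change was 0.47 (SE 0.23, edgeR adjusted p = 0.146), against 0.12 without wild-type libraries 2 and 3 and -0.0059 with the covariate.

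Troponin I is the inhibitory subunit. Fast Tnni2 had 1939, 1825 and 1118 CPM in wild type and 2093, 3054, 2477 and 2316 CPM in Tnc-/-. The groups did not overlap, although wild-type library 1 and Tnc-/- library 1 were close, and with library totals they overlapped. The means of 1627 ± 445 (SD, n = 3) and 2485 ± 411 CPM (SD, n = 4) differed by 0.61 on the log2 scale, with SE 0.25 (edgeR adjusted p = 0.0923). The value was 0.35 without wild-type libraries 2 and 3 and 0.31 with the receptor covariate. Slow Tnni1 had 82.9, 69.6 and 56.8 CPM in wild type and 82.1, 71.98, 65.2 and 76.4 CPM in Tnc-/-. Its groups overlapped over most of their range, with the highest value of all in wild-type library 1. The log2 fold change of Tnni1 was 0.083 (SE 0.15, edgeR adjusted p = 0.716), the smallest in size among the 9 tested members. Its sign turned with library totals (-0.13), with the receptor covariate (-0.25), without wild-type library 3 (-0.042) and without wild-type libraries 2 and 3 (-0.17).

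Troponin C is the calcium sensor, and both of its genes were at or near the floor of the counts. Slow Tnnc1 had 0 counts in 7 of 7 libraries, where a floor of 3 counts corresponds to between 0.11 and 0.198 CPM. Fast Tnnc2 had 10, 0 and 19 counts in wild type and 18, 42, 16 and 37 in Tnc-/-, or 0 to 1.15 and 0.661 to 2.32 CPM. These groups overlapped, and the fitted log2 difference of 1.35 (SE 1.04, edgeR adjusted p = 0.355) rests on few reads. In GENCODE M21, 592 of the 800 exon bases of Tnnc2 (74.0%) are also exon of Ube2c on the other strand, a ubiquitin-conjugating enzyme with 410 to 3334 counts per library. The remaining 208 exon bases of Tnnc2 are its own, and the part of the overlap in its counts was not tested. Tnnc1 shares no exon base with another gene in that annotation, and whether the annotation used for counting differs there was not tested. The levels of these genes therefore cannot be read as the amount of troponin C in the muscle, and no fast to slow ratio was formed for them.

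Essential light chains sit on the neck of the myosin head. Fast Myl1 had 3198, 2598 and 2206 CPM in wild type and 2445, 4336, 2715 and 2719 CPM in Tnc-/-. Tnc-/- library 2 stood far above the other libraries of its group, and wild-type library 1 lay above the other 3 of them. The log2 fold change of Myl1 was 0.20 (SE 0.26, edgeR adjusted p = 0.596). It was 0.44 without wild-type library 1 and -0.025 without Tnc-/- library 2, so its sign rests on a single library. It was also below 0 without wild-type libraries 2 and 3 (-0.072), with the covariate (-0.15) and with library totals (-0.021). Slow Myl3, also the ventricular form, had 101, 44.3 and 46.8 CPM in wild type and 101, 115, 133 and 93.9 CPM in Tnc-/-. Wild-type libraries 2 and 3 were low and library 1 was among the Tnc-/- values. The log2 fold change was 0.79 (SE 0.29, edgeR adjusted p = 0.0733), and 0.13 without wild-type libraries 2 and 3. With the receptor covariate its sign turned, to -0.22.

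Regulatory light chains can be phosphorylated, which sets how readily the heads engage. Fast Mylpf had 2300, 2398 and 1586 CPM in wild type and 2435, 3961, 2827 and 2719 CPM in Tnc-/-. The gap between the groups was narrow, with 2398 CPM in wild-type library 2 and 2435 CPM in Tnc-/- library 1, and with DESeq2 size factors or library totals they overlapped. The log2 fold change was 0.51 (SE 0.24, edgeR adjusted p = 0.145), against 0.37 without wild-type libraries 2 and 3 and 0.38 with the receptor covariate. Slow Myl2, the slow and ventricular form, had 86.5, 36.8 and 30.3 CPM in wild type and 108, 120, 118 and 88.3 CPM in Tnc-/-. Wild-type library 1 came within 2 CPM of the lowest Tnc-/- library, and wild-type libraries 2 and 3 were far below. With DESeq2 size factors or library totals the groups overlapped. Myl2 rose from 51.2 ± 30.7 (SD, n = 3) to 109 ± 14.5 CPM (SD, n = 4), with 1.08 as its log2 fold change (SE 0.34, edgeR adjusted p = 0.0428). In GENCODE M21, 60 of the exon bases of Myl2 (3.08%) are shared with Ccdc63 and 95 of those of Myl3 (4.65%) with Pth1r, both on the other strand, and their effect on the counts was not tested.

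The Myl2 call depended on most of the libraries. Without wild-type library 1 the log2 fold change was 1.79 (edgeR adjusted p = 1.5e-06), and leaving out any other single library ended the call. The edgeR adjusted p was 0.138 and 0.140 without wild-type library 2 or 3, and 0.0986, 0.0960, 0.103 and 0.0701 without Tnc-/- library 1, 2, 3 or 4. Without both wild-type libraries 2 and 3 the log2 fold change was 0.32 (edgeR adjusted p = 0.320), and with the summed smell and pheromone receptor level as a covariate it was -0.036 (edgeR adjusted p = 0.964). With wild-type library 1 left out, 6 of the tested members passed the threshold (Tnnt3, Tnni2, Mylpf, Tnnt1, Myl2 and Myl3), while 24.3% of all genes tested were then called higher. Without wild-type libraries 2 and 3, 0 members passed in edgeR and 0 had an unadjusted p under 0.05, with 2.53% of all genes called higher. DESeq2 called 4 members (Tnnt3, Tnni2, Myl2 and Myl3) beside 10.3% of its genes called higher, and edgeR with no filter called 2 beside 7.24%. With limma voom, library totals and the receptor covariate the count of members was 0, where 4.09, 5.58 and 1.1% of all genes were called higher, and unadjusted p-values under 0.05 numbered 4, 2 and 0.

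**Figure D1:**
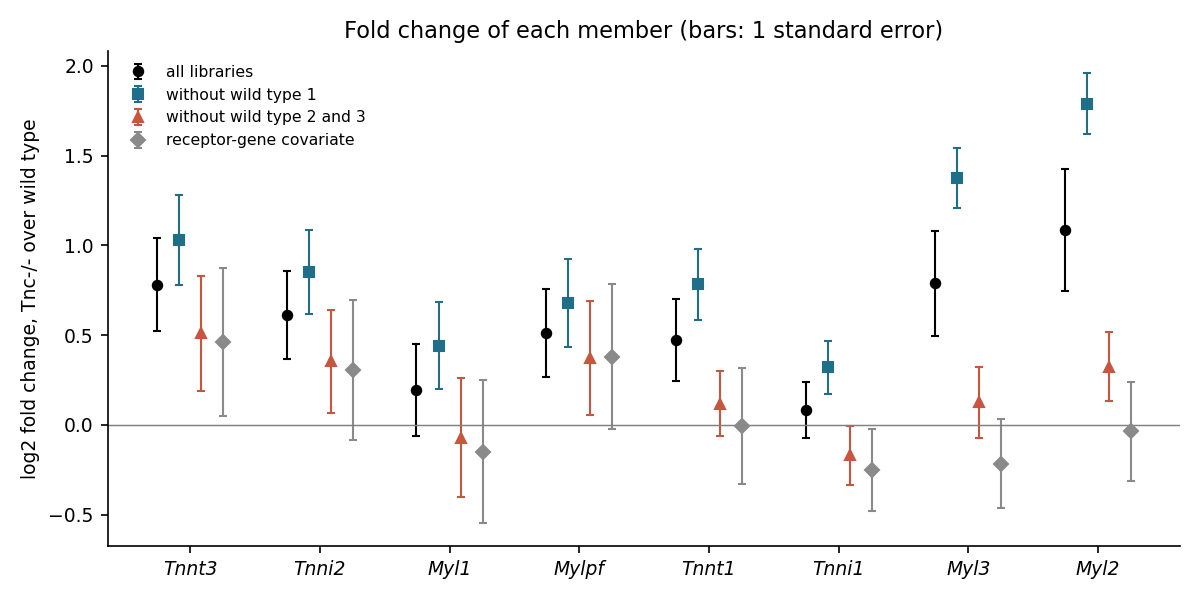
Log2 fold change of the 8 members with over 3 counts in every library, Tnc-/- over wild type, with bars of 1 standard error; colours and shapes mark the edgeR fit with all libraries, without wild-type library 1, without wild-type libraries 2 and 3, and with the receptor-gene covariate. For Myl2 the value goes from 1.08 with all libraries to 1.79 without wild-type library 1 and to -0.036 with the covariate, and without wild-type library 1 each of the 8 members has its highest value.

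By TMM-scaled level, wild-type library 3 was the lowest library for 7 of 8 members with over 3 counts in every library, and with library totals for 5 of 8. Tnc-/- library 2 was the highest for 5 of 8 on either scale. Wild-type libraries 1, 2 and 3 lay below every Tnc-/- library for 4, 6 and 8 of these members, beside 31.9, 42.2 and 40.4% of all genes tested. With library totals the members were 3, 3 and 6, beside 24.3, 29.8 and 27.7% of all genes. With TMM, wild-type library 1 fell within the Tnc-/- range for 3 of 8, namely Myl1, Tnnt1 and Myl3, and lay just above it for Tnni1.

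**Figure D2:**
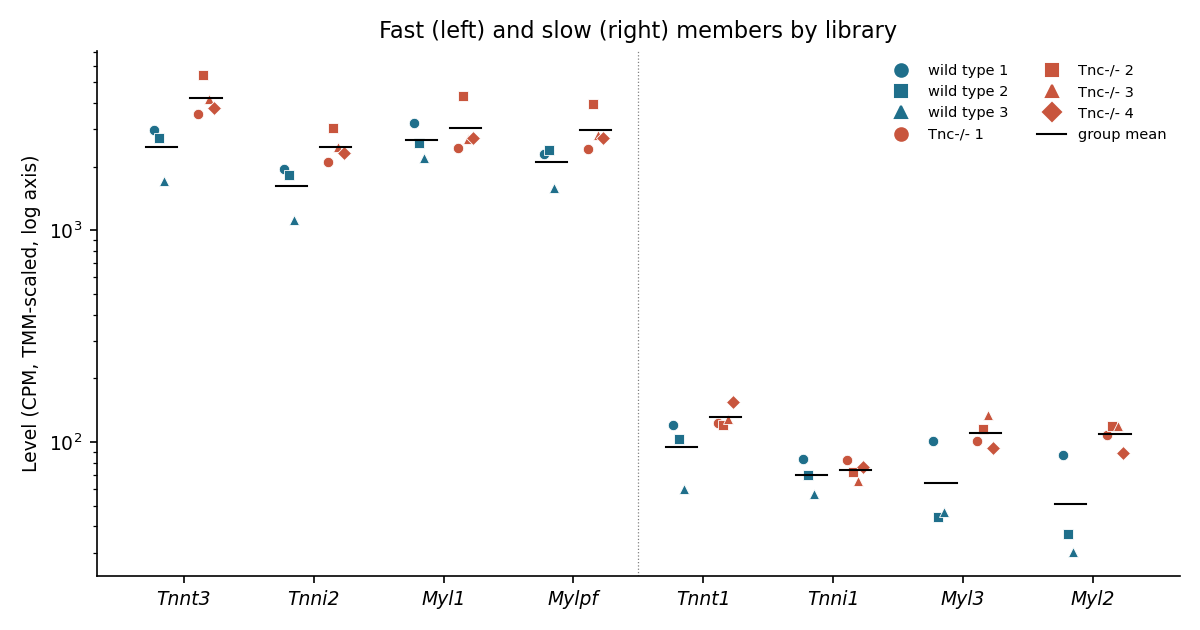
Level of the 8 members with over 3 counts in every library, in TMM-scaled CPM on a log axis, with fast members on the left and slow members on the right; points are libraries, blue for wild type (n = 3) and red for Tnc-/- (n = 4), and lines are group means. Wild-type library 3 is the lowest point for 7 of the 8, and the fast members lie far above the slow ones.

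Ratios of a fast to a slow gene within a library do not depend on how libraries are scaled. For troponin T, the count ratio of Tnnt3 to Tnnt1 was 24.6, 26.4 and 28.5 in wild type and 28.9, 45.3, 32.6 and 24.6 in Tnc-/-. The groups overlapped, with a difference of 0.27 in mean log2 ratio (two-sided exact permutation test, p = 0.286). For troponin I, Tnni2 to Tnni1 was 23.4, 26.2 and 19.7 in wild type and 25.5, 42.4, 38.0 and 30.3 in Tnc-/-. Here 3 of 4 Tnc-/- libraries lay above all wild-type ones, and the mean log2 ratio was higher by 0.54 (two-sided exact permutation test, p = 0.114). Each of these ratios had counting errors smaller than the spread between mice, as the slow share of a pair had 95% Wilson intervals such as 3.75 to 4.07% for Tnnt1 in wild-type library 1.

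The light chain ratios were ordered the other way. Myl1 to Myl3 was 31.6, 58.7 and 47.2 in wild type and 24.2, 37.8, 20.3 and 28.95 in Tnc-/-. Tnc-/- library 2 alone reached into the wild-type range, and the mean log2 ratio differed by -0.71 (two-sided exact permutation test, p = 0.114), or by -0.22 without wild-type libraries 2 and 3. Mylpf to Myl2 was 26.6, 65.2 and 52.4 in wild type and 22.6, 33.1, 23.9 and 30.8 in Tnc-/-. Wild-type library 1 lay among the Tnc-/- values, and the mean log2 ratio differed by -0.72 (two-sided exact permutation test, p = 0.171). Without wild-type libraries 2 and 3 it was 0.033, of the opposite sign. None of the 4 ratios separated the groups, and with 3 against 4 mice the smallest p that this test can give is 0.0571. The p-values of the 4 pairs are unadjusted, and whether the troponin and light chain pairs differ from each other was not tested.

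**Figure D3:**
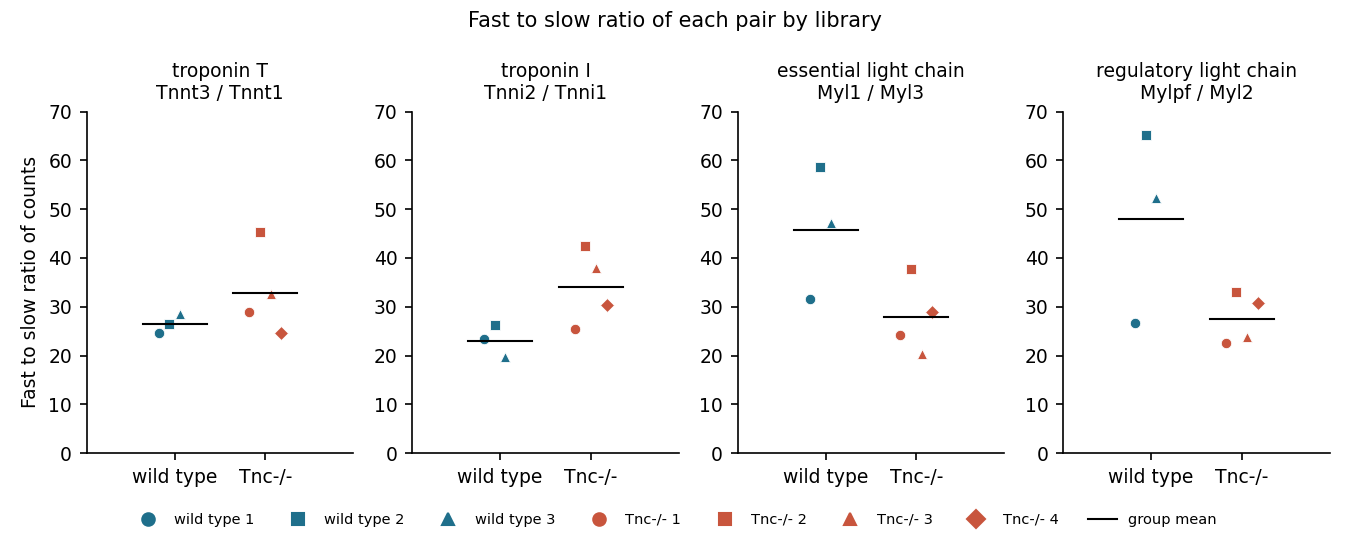
Ratio of fast to slow counts for the 4 pairs with counts, by library on a linear axis from 0; blue points are wild type, red points are Tnc-/- and lines are group means. The Tnc-/- means are the higher ones for troponin T (32.8 against 26.5) and troponin I (34.1 against 23.1) and the lower ones for the essential (27.8 against 45.8) and regulatory (27.6 against 48.1) light chains, with overlap in each panel.

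Summed over the members, the 5 fast genes came to 10404, 9539 and 6627 CPM in wild type and 10517, 16797, 12192 and 11553 CPM in Tnc-/-. The 5 slow genes came to 391, 254 and 194 CPM in wild type and 414, 427, 445 and 413 CPM in Tnc-/-. Neither sum overlapped between the groups with TMM, though for the fast sum wild-type library 1 lay just below Tnc-/- library 1. With library totals both overlapped, the fast sum at 10549 CPM in wild-type library 1 against 10157 in Tnc-/- library 1 and the slow sum at 397 in wild-type library 1 against 380.0 in Tnc-/- library 4. With DESeq2 size factors the fast sum overlapped as well. The ratio of the sums was 26.6, 37.6 and 34.2 in wild type and 25.4, 39.4, 27.4 and 27.96 in Tnc-/-, and here the groups overlapped. Taken per summed level of the 12 sarcomere genes common to both fibre types, the fast sum was 36.1, 46.5 and 32.3% in wild type and 41.4, 41.0, 41.9 and 41.5% in Tnc-/-. On that scale the Tnc-/- libraries lay within 1 percentage point of each other and inside the wild-type range. The slow sum was 1.36, 1.24 and 0.946% of the common genes in wild type and 1.63, 1.04, 1.53 and 1.48% in Tnc-/-, again with overlap. These sums are descriptions and carry no test.

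The makeup of the sums is given as shares, without a test. Tnnt3 took 28.5, 28.5 and 25.9% of the fast counts in wild type and 33.7, 32.4, 34.2 and 32.9% in Tnc-/-. Myl1 took 30.7, 27.2 and 33.3% in wild type and 23.2, 25.8, 22.3 and 23.5% in Tnc-/-. Tnnt3 thus had the larger share in every Tnc-/- library and Myl1 the smaller one, while the shares of Tnni2 and Mylpf overlapped. The mean share of Mylpf was 23.7 ± 1.52% (SD, n = 3) in wild type and 23.4 ± 0.224% (SD, n = 4) in Tnc-/-. Of the slow counts, Tnni1 took 21.2, 27.4 and 29.3% in wild type and 19.8, 16.9, 14.7 and 18.5% in Tnc-/-, again without overlap, and the shares of Tnnt1, Myl2 and Myl3 overlapped. The widest 95% Wilson interval of a share reached 0.279 percentage points to either side for a fast and 1.60 for a slow member, counting error only.

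**Figure D4:**
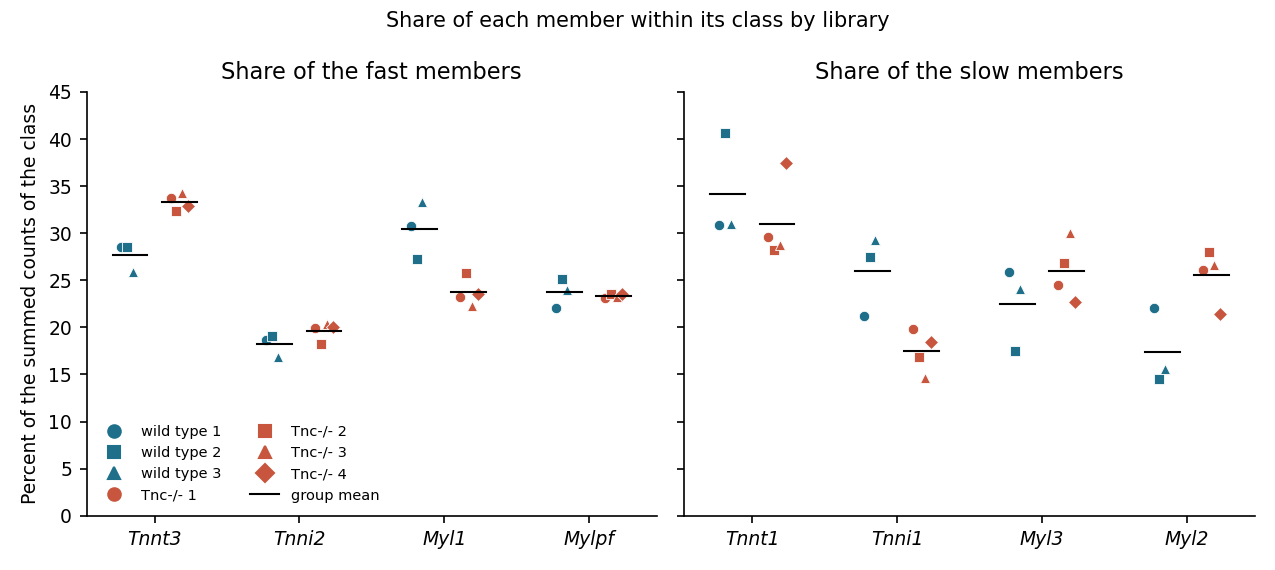
Share of each member in the counts of its class, in percent by library, with the fast class in one panel and the slow class in the other; blue points are wild type, red points are Tnc-/-, and lines are group means. Tnnt3 is higher and Myl1 lower in every Tnc-/- library than in every wild-type one, and Tnni1 is lower in every Tnc-/- library.

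Pairwise ratios of the 8 members with over 3 counts everywhere were also compared, a choice made after the values had been seen. Of 28 such ratios, 10 did not overlap between the groups, 7 of them higher and 3 lower in Tnc-/-. These ratios share genes, and over all single genes tested 35.1% did not overlap, so nothing is read from their number. Tnnt3 to Tnni2, neighbours on chromosome 7 with 1 gene between them in GENCODE M21, was 1.53, 1.49 and 1.54 in wild type and 1.69, 1.78, 1.68 and 1.64 in Tnc-/-. Tnnt3 to Myl1 was 0.927, 1.05 and 0.778 in wild type and 1.45, 1.26, 1.54 and 1.40 in Tnc-/-. Among slow members, Myl2 to Myl3 was 0.855, 0.830 and 0.648 in wild type and 1.07, 1.04, 0.888 and 0.940 in Tnc-/-. The 3 lower ones were Myl1 to Myl2, Tnni1 to Myl2 and Tnni1 to Myl3, with differences in mean log2 ratio of -1.06, -1.14 and -0.79. A ratio shows unequal change and not which gene moved, and these ratios got no test.

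Other genes of fast fibres had log2 fold changes above 0 in 11 of 11 tested, with a median of 0.67, beside 8887 of 17791 above 0 over all genes tested. With the receptor covariate 1 of them, Casq1, the fast calsequestrin (named after its values were seen), was below 0 (-0.050). Of the 11, 4 were called higher, beside 10.3% of all genes tested. Myh4, the fastest myosin heavy chain of mouse limb muscle, rose from 4483, 3355 and 3725 CPM in wild type to 7902, 9600, 9922 and 7437 CPM in Tnc-/- (log2 fold change 1.18, SE 0.22, edgeR adjusted p = 0.00856). It was called without any 1 library, and lost the call without wild-type libraries 2 and 3 (0.95, edgeR adjusted p = 0.114) and with the receptor covariate (0.85, adjusted p = 0.240). Mybpc2, the fast myosin-binding protein C, rose by 0.82 on the log2 scale (SE 0.21, edgeR adjusted p = 0.0215), and Mylk2, the kinase that phosphorylates skeletal regulatory light chains, rose by 0.67 (SE 0.17, edgeR adjusted p = 0.0219). The fourth was Actn3, the fast fibre alpha-actinin (0.72, SE 0.21, edgeR adjusted p = 0.0341), which is named after its values were seen. Mybpc2 kept its call in 3 of 7 fits that left out a library (without wild-type library 1, Tnc-/- library 1 or Tnc-/- library 4), Mylk2 in 2 (the first and second of these) and Actn3 in 1 (the first). Without wild-type libraries 2 and 3, Mybpc2 had 0.55, Mylk2 0.41 and Actn3 0.42, with edgeR adjusted p-values of 0.241, 0.263 and 0.377. The receptor covariate ended these calls too, with 0.43 for Mybpc2, 0.27 for Mylk2 and 0.29 for Actn3 (edgeR adjusted p-values of 0.511, 0.612 and 0.679). The count of fast fibre genes called was 11 without wild-type library 1 (where 24.3% of all genes were called higher), 1 when any of wild-type libraries 2 and 3 and Tnc-/- libraries 2 and 3 was left out, 2 without Tnc-/- library 4 and 3 without Tnc-/- library 1.

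Of 12 other genes of slow fibres, 1 was called, higher in Tnc-/-, which is near the 10.3% of all genes tested, and their median log2 fold change was 0.33. The one called was Ankrd2, a titin-associated ankyrin repeat protein, at 0.70 (SE 0.21, edgeR adjusted p = 0.0386), and of the single libraries it kept the call only without wild-type library 1 or Tnc-/- library 3. It had 0.37 (edgeR adjusted p = 0.371) with wild-type libraries 2 and 3 left out, and 0.23 (0.748) with the receptor covariate. Myh7, the slow heavy chain that works with Myl2 and Myl3, had 39.9, 8.65 and 11.8 CPM in wild type and 53.0, 47.9, 64.9 and 44.9 CPM in Tnc-/-. Its groups did not overlap, and wild-type libraries 2 and 3 were low as they were for Myl2 and Myl3. The log2 fold change was 1.39 (SE 0.48, edgeR adjusted p = 0.0620), and 0.39 without those libraries. With the receptor covariate it was -0.23, of the opposite sign (edgeR adjusted p = 0.719). Smtnl1, a smoothelin-like protein of muscle, stood at 0.53 (SE 0.19, edgeR adjusted p = 0.0639), at 0.19 without wild-type libraries 2 and 3 and at 0.068 with the covariate. The count of slow fibre genes called was 9 without wild-type library 1, beside 24.3% of all genes called higher. It was at most 1 without any other single library, where from 592 of 18116 to 1007 of 17560 genes tested were called higher.

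Of the 12 sarcomere and muscle genes common to both fibre types, 2 were called, both higher in Tnc-/-, beside 10.3% of all genes tested, with a median log2 fold change of 0.48. Ryr1, the calcium release channel of skeletal muscle, rose by 1.28 on the log2 scale (SE 0.26, edgeR adjusted p = 0.00992) and kept its call without any 1 library, but not without wild-type libraries 2 and 3 (0.83, edgeR adjusted p = 0.112) or with the receptor covariate (0.61, adjusted p = 0.368). Tcap, the titin cap protein of the Z-disc, rose by 0.81 (SE 0.25, edgeR adjusted p = 0.0411) and lost its call without any library other than wild-type library 1. Tcap had 0.46 (edgeR adjusted p = 0.370) with wild-type libraries 2 and 3 left out, and 0.33 (0.683) with the covariate. Ldb3, a Z-disc scaffold, had 0.55 (SE 0.20, edgeR adjusted p = 0.0686), 0.34 without wild-type libraries 2 and 3 and 0.28 with the covariate. The count of common genes called was 10 without wild-type library 1 (24.3% of all genes called higher). It was 1 without any other single library, where from 592 of 18116 to 1007 of 17560 genes tested were called higher. Of the 5 developmental sarcomere genes, Actc1, the cardiac and embryonic actin, was listed at 0 in every library and 0 of the other 4 were called, with Myh3 (embryonic heavy chain) at 0.24, Myh8 (perinatal heavy chain) at 0.074 and Tnnt2 (cardiac and embryonic troponin T) at -0.22. Unadjusted, 0 of these 4 had a p under 0.05 in edgeR either, and 0 were called with DESeq2 or limma voom. Myh3, Myh8 and Tnnt2 had -0.39, -0.22 and -0.25 without wild-type libraries 2 and 3, and -0.73, -0.35 and -0.37 with the receptor covariate.

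Of 14 regulators tied to fibre type, 2 were called higher and 2 lower, near the 29.0% of all genes tested that were called (10.3% higher and 18.7% lower), with a median log2 fold change of -0.046. Mef2d, a MEF2 family transcription factor of muscle genes, rose from 144, 109 and 100.4 to 203, 239, 233 and 197 CPM (0.89, SE 0.17, edgeR adjusted p = 0.00837) and kept its call without any 1 library, but not without wild-type libraries 2 and 3 (0.59, edgeR adjusted p = 0.09025) or with the receptor covariate (0.48, adjusted p = 0.304). Nfatc1, the calcineurin target linked to the slow program, rose by 0.45 (SE 0.14, edgeR adjusted p = 0.0438; 0.27 without those libraries, adjusted p = 0.384, and 0.18 with the covariate, adjusted p = 0.734). Ppargc1a, a coactivator of oxidative metabolism linked to slow fibres, had 14.5, 23.8 and 32.2 CPM in wild type and 9.22, 15.0, 12.7 and 9.51 CPM in Tnc-/- and fell by 1.01 (SE 0.30, edgeR adjusted p = 0.0355), with 1 Tnc-/- library above the lowest wild-type one. Its value was -0.33 without wild-type libraries 2 and 3 (edgeR adjusted p = 0.511) and -0.060 with the receptor covariate (0.958). The other gene called lower, named after its values were seen, was Eya1, a transcriptional cofactor of fast fibre genes, with -1.05 (SE 0.34, edgeR adjusted p = 0.0476). Eya1 had -0.097 without wild-type libraries 2 and 3 (edgeR adjusted p = 0.868), and with the receptor covariate its sign turned, to 0.35 (0.661). Nfatc1, Ppargc1a and Eya1 were called in 1 of 7 fits that left out a library, the one without wild-type library 1. In those fits the count of regulators called was 7 without wild-type library 1, where 14113 of 21989 genes were called. It was 1 without any other, where from 2229 of 18116 to 3086 of 17560 genes were called.

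Heart muscle shares Tnnc1, Myl2 and Myl3 with slow fibres, so its own markers are given beside them. Of 6, Myl7 and Nppa were listed at 0 in every library, and 2 of the 4 tested were called, both lower. Over all genes tested, 18.7% were called lower and 29.0% in either direction. The summed level of the 6 was 9.27 to 114 CPM in wild type and 5.87 to 7.25 CPM in Tnc-/-. Ryr2, the cardiac calcium release channel, accounts for most of that range, with 4.26, 99.6 and 85.5 CPM in wild type and 0.221 to 1.25 CPM in Tnc-/- (log2 fold change -6.42, edgeR adjusted p = 0.00702). Myh6, a myosin heavy chain of heart muscle, was also highest in wild-type libraries 2 and 3, with 3.62, 12.9 and 12.1 CPM in wild type against 1.51 to 3.37 CPM in Tnc-/- (-2.04, SE 0.52, edgeR adjusted p = 0.0214). Without wild-type libraries 2 and 3, Ryr2 had -2.55 (edgeR adjusted p = 0.0435) and Myh6 -0.66 (0.400). With the receptor covariate both calls ended, at -1.14 for Ryr2 (edgeR adjusted p = 0.285) and -0.069 for Myh6 (0.965), and limma voom called neither (adjusted p = 0.299 and 0.102). Myh6 also lost its call in 5 of 7 fits that left out a library, all but those without wild-type library 1 or Tnc-/- library 2. Tnni3, the cardiac troponin I beside Tnnt1 on chromosome 7, had 1.39, 1.65 and 1.21 CPM in wild type and 2.84 to 3.17 CPM in Tnc-/- (1.06, SE 0.44, edgeR adjusted p = 0.104). Myl2 and Myl3 were lowest in wild-type libraries 2 and 3, where Ryr2, Myh6 and the receptor genes were highest. The other 2 tested heart markers went the other way, Tnni3 as given and Mybpc3, named after its values were seen, with 1.36 (SE 1.23, edgeR adjusted p = 0.434). Mybpc3 had at most 0.784 CPM in any library. The part of heart muscle in the members' counts was not tested.

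Markers of other cells of the joint were also unequal between the libraries. The summed level of 6 red cell genes was 4707 to 8935 CPM in wild type and 12836 to 25079 CPM in Tnc-/-, and that of 6 neutrophil genes 2408 to 4973 and 5462 to 9229 CPM. Of these, 3 of 5 tested red cell genes and 3 of 6 neutrophil genes were called higher, beside 10.3% of all genes tested, while Alas2, a red cell enzyme of haem synthesis, was listed at 0 in every library, where the haemoglobin gene Hbb-bs, also named after its values were seen, reached 13454 CPM. As with Tnnc1, a listed 0 for Alas2, Actc1, Myl7 or Nppa therefore cannot be read as absence of the RNA. Light chain and other genes of smooth muscle and non-muscle cells summed to 753 to 1122 CPM in wild type and 1380 to 1742 CPM in Tnc-/-, with 2 of 8 tested called higher. The genes of this list are named after their values were seen. Those called were Myl6 (mean 313 against 479 CPM) and Myh9 (285 against 723 CPM). Myl9 did not overlap either (0.48, edgeR adjusted p = 0.0715). Acta2 (0.053), Myh11 (0.25), Cnn1 (-0.20) and Mylk (-0.35) overlapped between the groups and were not called. Summed levels overlapped between the groups for 4 fat cell genes (418 to 705 and 514 to 857 CPM, 1 of 4 called higher). They also overlapped for 5 fibroblast genes (29758 to 48024 and 32092 to 56219 CPM), with 0 of 5 called in the main edgeR fit. Of these, Dcn, named after its values were seen, was lower in every Tnc-/- library (-0.44), with an unadjusted edgeR p under 0.05. It was called lower with DESeq2 (-0.47, adjusted p = 0.0016) and with edgeR on library totals (-0.66, adjusted p = 0.0158). Epidermal genes summed to at most 3.73 CPM in any library, with Krt5 at most at 3 counts. The part of these cells in the members' levels was not tested.

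The profiles most like those of the members were sought among the 4104 other genes that averaged 50 CPM or more over the 7 libraries. Likeness was the root mean square distance between log2(CPM + 1) profiles, each centred on its mean. For the summed fast members the nearest were Eno3, the muscle enolase (distance 0.0437), Cacng6, a calcium channel subunit of muscle (0.0605), and Ckm, the muscle creatine kinase (0.0661). For the summed slow members they were Fkbp8, an FK506-binding protein (0.0767), C3, the central complement component (0.0839), and Ybx1, a nucleic acid-binding protein (0.0855). The 3 genes nearest the fast sum are genes of muscle, whereas those nearest the slow sum are also used by cells other than muscle. The centred slow profile was -0.46 and -0.84 in wild-type libraries 2 and 3 and 0.17 to 0.35 in the others. Likeness to it is thus mainly a low value in these libraries, and the cells behind the slow counts were not tested. These distances describe 7 libraries that share depth and scaling, and carry no test.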

How the data were processed

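RNA sequencing counted poly(A) RNA of whole shoulder joints from 3 wild-type and 4 Tnc-/- mice, grouped by the genotype label. The authors deposited raw counts per gene, 1 file per library; the submitters' processing notes name FastQC 0.11.9, HISAT2 2.2.1, HTSeq 2.0.2, DESeq2 1.38.3 and GRCm39 (mm39), and the annotation is not given in the sources used here. Wild-type files list 56980 identifiers and Tnc-/- files 56941, so counting runs differed by genotype. Rows that name no gene, in the Tnc-/- files only, held 30.1 to 32.7% of the reads and were left out.

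From these counts, the 17791 genes passing filterByExpr were tested with edgeR 4.0.16 (R 4.3.3; TMM, robust quasi-likelihood F test, genotype as the only term, Benjamini-Hochberg). Standard errors were taken from the fold change and its F statistic. Ratios were compared by two-sided exact permutation (35 arrangements). The labels call the samples separate mice. Depth was 13.5 to 28.2 M gene counts; intervals are 95% Wilson and, like floors of 3 counts, cover counting error only. Lengths and overlaps came from GENCODE M21 (GRCm38) and promoters from RefSeq (GRCm38.p6).

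Alternatives were DESeq2 1.42.0, limma 3.58.1 voom, other scalings, filters and adjustments, a receptor-level covariate, leaving out libraries and a replicate block. Named genes are all members, the 3 genes of smallest p in each muscle list, Tnc, the neighbours Tnni3 and Tnnt2, and the 3 profiles nearest each sum; others are marked or are list genes named for a count at or near 0. The members and lists were chosen with earlier results of these data known. Protein sequences were not used here.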

Additional observations from a re-analysis of the deposited data

Results flagged for a closer look

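Of 33 values looked at over the 4 Tnc-/- libraries, 1 had a library far from the others. Myl1, the fast essential light chain, was at 4336 CPM in Tnc-/- library 2, while the other 3 Tnc-/- libraries were at 2445, 2715 and 2719 CPM. The gap to the nearest of them made up 0.855 of the range of the 4, more than Dixon's 95% limit allows. About 1 in 20 such groups is marked by chance alone, so 1 of 33 is no more than that rate gives.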

How the results depend on the processing

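The log2 fold changes of Tnnt3, Tnni2, Tnnc2 and Mylpf kept their sign under every alternative that gave a value. With DESeq2 (Benjamini-Hochberg), Tnnt3 was 0.75 (adjusted p = 0.00467), Tnni2 0.58 (0.0264) and Myl3 0.76 (0.0435), and with no filter in edgeR Tnnt3 was 0.86 (adjusted p = 0.0488). The Myl2 call was lost with voom (1.21), library totals (0.90), upper-quartile scaling (1.02), DESeq2 with Bonferroni (1.05) and edgeR with Bonferroni (1.08). Library totals moved the median of all genes to -0.22 and turned Myl1 to -0.021 and Tnni1 to -0.13. The receptor covariate gave -0.036 for Myl2, -0.15 for Myl1, -0.0059 for Tnnt1, -0.25 for Tnni1 and -0.22 for Myl3. Without wild-type libraries 2 and 3, added after the data were seen, Myl1 was -0.072, Tnni1 -0.17, Myl2 0.32, Myl3 0.13 and Tnnt1 0.12. The cause was not tested for any of these.

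Members called numbered 4 with DESeq2 and 2 with no filter, beside 10.3% and 7.24% of all genes called higher; they numbered 0 with voom, totals, upper quartile, covariate, block, either Bonferroni adjustment and without wild-type libraries 2 and 3. Of all genes, 5159 were called in the edgeR fit, 9423 with DESeq2, 1004 with voom, 399 with the covariate, 1943 and 22 with Bonferroni in DESeq2 and edgeR, and 825 without wild-type libraries 2 and 3. Of the calls, 64.5% were lower in Tnc-/-, against 81.6% with totals, 73.8% with DESeq2, 27.5% with voom, 51.1% with the covariate, 84.4 and 18.2% with those Bonferroni adjustments, 54.3% with the block and 43.2% without these 2 libraries. Same-numbered libraries did not deviate together (correlations 0.0076, 0.117 and -2.4e-04). As wild-type libraries 2 and 3 stood apart from library 1, this cannot show whether same-numbered libraries were handled as pairs. With the replicate block, 1933 genes and 0 members were called and Myl2 was 1.33 (edgeR adjusted p = 0.0752).

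Leaving out 1 library gave log2 fold changes of 0.58 to 1.03 for Tnnt3, 0.41 to 0.85 for Tnni2, 0.77 to 2.37 for Tnnc2, -0.025 to 0.44 for Myl1, 0.34 to 0.68 for Mylpf, 0.24 to 0.78 for Tnnt1, -0.042 to 0.32 for Tnni1, 0.82 to 1.79 for Myl2 and 0.57 to 1.375 for Myl3. Members called ran from 0 to 6 and genes called from 2229 to 14113, both highest without wild-type library 1. The list counts ran from 1 to 11 for fast fibre genes, 0 to 9 for slow fibre genes, 1 to 10 for common sarcomere genes, 1 to 7 for regulators and 1 to 2 for heart markers.

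The ratio differences ran from 0.11 to 0.40 for troponin T, 0.43 to 0.67 for troponin I, -0.96 to -0.51 for the essential and -1.10 to -0.46 for the regulatory light chains, the last 2 being -0.22 and 0.033 without wild-type libraries 2 and 3. The log2 difference was 0.53 for the fast and 0.66 for the slow sum, and 0.13 and 0.26 per common sarcomere sum. Leaving out 1 library gave 0.33 to 0.66 and 0.43 to 0.94, and leaving out wild-type libraries 2 and 3 gave 0.27 and 0.12. Without the genes that heart also uses and their fast partners, the sums gave 0.74 and 0.35. The difference of the ratio of the sums, -0.13, was 0.38 without these genes, 0.15 without wild-type libraries 2 and 3, and -0.28 to -0.027 leaving out 1 library. Tnnc1 gave no value, and Tnnc2 and Tnnc1 are limited by counts.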
